A study of Drosophila melanogaster with 3 samples.

Results

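Glut4EF (FBgn0267336, chr3R:9874681-9995364 of dm6, forward strand) is a 121 kb gene that collected 23 of the 9370 Eagle binding sites in the series' conservative peak list. A peak is a stretch where precipitated DNA piles up, its summit is the highest point, and its signal is the strength that the authors gave it. "Conservative" is their name for this list. The sites were chosen by their place in that list: every peak whose summit lay in the gene or within 10 kb of it was taken, and 22 of the 23 fell inside the gene. The number, position, signal and replicate support of these peaks are therefore descriptions, with no test. The data are chromatin immunoprecipitation followed by sequencing (ChIP-seq) with an anti-GFP antibody from whole Drosophila melanogaster prepupae of the strain eg-GFP, labelled as 2 days old. They carry a transgene for eg-eGFP, a fusion of Eagle to green fluorescent protein. There were 3 biological replicates of this 1 group and no other condition. What drives the transgene is not stated in the sources used here, and whole animals pool every tissue, so a peak names no cell type. Read depth is unknown. The replicates' thresholded lists held 6215, 6024 and 7476 peaks (replicates 1, 2 and 3).

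Eagle (gene eg) belongs to the knirps family of nuclear receptor proteins, which have no known ligand. It binds DNA through zinc fingers and is known for its part in making serotonergic neurons of the nerve cord. Glut4EF stands for glucose transporter 4 enhancer factor. It takes its name from a human zinc-finger protein that binds an enhancer of the gene for the insulin-responsive glucose transporter GLUT4. Long fly genes with far-apart start sites often carry enhancers in their introns, and alternative start sites can give proteins with different first exons. Binding of a factor in an intron does not by itself show which start site, or which gene, it acts on.

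Ensembl lists 8 transcripts of Glut4EF from 2 transcription start sites (TSSs). The first TSS, at position 9874681, serves 5 transcripts, whose start codon lies 0.994 kb downstream. The second TSS, 54.2 kb further in, serves 3 transcripts, whose start codon lies 1.56 kb downstream in an exon shared by all 8. The 2 classes of transcript thus begin their coding sequence in different exons. The gene CG46467 (FBgn0287598) is annotated on the same strand from the first TSS and contains the same 22 summits in its body. The second TSS, with P11 just upstream of it, is annotated for Glut4EF alone. Along the gene the sites are numbered P1 to P23 in the direction of transcription.

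Sequences at 6 sites are shown because the account below turns on them: the 4 sites found in all 3 replicates (P13, P16, P18 and P19), the strong site just upstream of the first TSS (P1) and the site just upstream of the second (P11). Each runs from 50 bp before to 50 bp after the summit, read 5′ to 3′ on the forward strand of dm6 (RefSeq copy of release 6). Capitals mark matches to the short motifs described further on. P1 lies upstream of the gene (chr3R:9873933-9874033), P11 in intron 1 (chr3R:9928670-9928770), P13 and P16 in intron 3 (chr3R:9933466-9933566 and chr3R:9935008-9935108), P18 in intron 4 (chr3R:9950096-9950196) and P19 in intron 5 (chr3R:9961828-9961928).
P1: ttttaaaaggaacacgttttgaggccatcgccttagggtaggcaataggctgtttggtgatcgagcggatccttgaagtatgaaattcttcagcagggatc
P11: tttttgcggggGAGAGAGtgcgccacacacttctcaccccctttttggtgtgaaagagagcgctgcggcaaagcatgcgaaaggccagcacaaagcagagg
P13: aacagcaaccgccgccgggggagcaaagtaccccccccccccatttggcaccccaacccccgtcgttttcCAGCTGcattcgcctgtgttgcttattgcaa
P16: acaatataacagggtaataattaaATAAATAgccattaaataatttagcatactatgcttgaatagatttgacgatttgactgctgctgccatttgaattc
P18: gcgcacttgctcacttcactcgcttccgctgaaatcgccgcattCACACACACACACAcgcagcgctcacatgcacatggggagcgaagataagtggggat
P19: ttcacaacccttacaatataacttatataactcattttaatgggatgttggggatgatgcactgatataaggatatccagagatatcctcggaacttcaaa

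The 4 sites of full support differ in base composition. The G and C content of these windows was 61.4% at P13 and 56.4% at P18, against 28.7% at P16 and 34.7% at P19. P13 holds a long run of C, P18 a CA repeat across its summit, and P16 is rich in A and T. Over all 23 summits the median was 39.6% (25.7% to 61.4%), and over the whole list it was 35.6%.

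**Figure D1:**
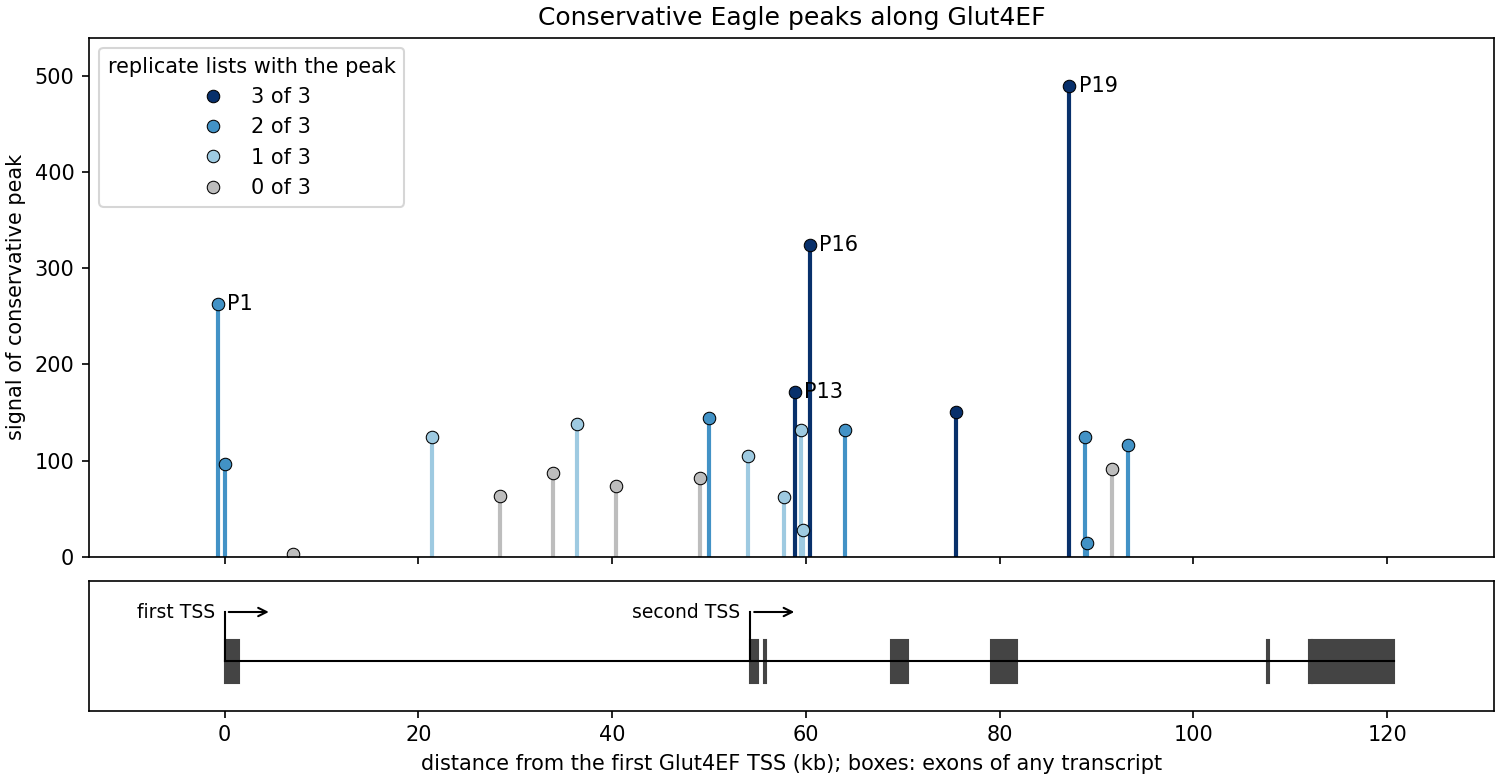
Signal of the 23 conservative peaks (vertical axis, the authors' peak strength) against distance from the first TSS of Glut4EF in kb (horizontal axis), coloured by how many of the 3 replicate lists hold each peak, above the exons of the gene. The highest peak, P19, stands at 490 in intron 5, the second TSS has 9 peaks within 10 kb, and no peak lies in the last 27.5 kb of the gene.

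The sites were spread along introns, and the densest stretch lay around the second TSS. No stretch of 16 kb in the 141 kb locus held more than 9 summits. That number was reached from P9 to P17, from 5.17 kb before to 9.78 kb beyond the second TSS. The first TSS had 3 summits within 10 kb and the second had 9, and the remaining 11 lay farther than 10 kb from both. Intron 1, which spans 52.7 kb between the first exon and the second TSS, held 9 summits (1.71 per 10 kb). Intron 3, a 12.9 kb intron just beyond the second TSS, held 6 (4.64 per 10 kb). Intron 4 held 1 and intron 5, of 25.8 kb, held 5 (1.94 per 10 kb). A single summit, P2, lay in an exon, and exons 2 to 8 and introns 2, 6 and 7 held none. Introns are numbered between the merged exons of all transcripts.

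The distribution was one-sided. From P1 to P23 the summits spanned 93.9 kb, and the 27.5 kb from P23 to the end of the gene held no conservative summit. The next conservative peak outside the locus lay 65.6 kb upstream of the gene (signal 241, in all 3 replicate lists) on one side and 33.3 kb downstream (in 1 list) on the other. None of the 23 summits lay within 1000 bp of a TSS of another named gene in the window, apart from CG46467, which shares the first TSS. These genes were Teh1, for an auxiliary subunit of the para sodium channel, Art4, for an arginine methyltransferase, the taste receptor gene Gr85a, the serpin gene Spn85F, Mical, for an actin-oxidising enzyme, CG5359, mir-9371 and lncRNA:CR45029.

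Neighbouring summits were a median of 3.09 kb apart, against 3.64 kb over the whole list. The largest gap, 14.3 kb, lay between P3 and P4 in intron 1. In 6 cases the gap was under 1 kb. P14 and P15 overlapped by 157 bp and P20 and P21 by 149 bp, and in each pair the same replicate peaks overlapped both. Counting each pair once leaves 21 separate sites.

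At the first TSS there were 2 sites. P1 (chr3R:9873943-9874046) had its summit 698 bp upstream and a signal of 263, rank 2005 of the list. Its own signal was 104 in the thresholded list of replicate 1 and 65 in that of replicate 3. In replicate 2 it was 59 in the ranked list and did not pass the threshold. P2 (chr3R:9874538-9874897) had its summit 37 bp downstream of the TSS, in the first exon, with a signal of 96.2. It was in the lists of replicates 2 and 3, with signals of 51.8 and 43.2, while the ranked list of replicate 1 gave 21.3. The 2 sites 735 bp apart were thus held by the lists of different pairs of replicates. In replicate 2 the unlisted P1 had a higher signal (59) than the listed P2 (51.8), so the threshold was not a cut on signal alone.

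At the second TSS there was 1 site within 500 bp. P11 (chr3R:9928540-9928899) had its summit 197 bp upstream and a signal of 105. It was in the thresholded list of replicate 3 alone, with a signal of 54, and had 18.7 and 38.4 in the ranked lists of replicates 1 and 2. With a promoter summit taken as one within 500 bp of any annotated TSS, P2 and P11 were the only promoter summits, 2 of 23 (8.7%). In the whole list 38.2% of summits were promoter summits. Neither P2 nor P11 was in all 3 replicate lists.

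The strongest and most repeatable sites lay inside the gene, away from both start sites. P19 (chr3R:9961765-9962004) lay in intron 5, 87.2 kb downstream of the first TSS and 33 kb downstream of the second. It had a signal of 490, rank 734. The signals were 137, 150 and 198 in replicates 1, 2 and 3 (162 ± 32, SD, n = 3), at ranks 1019, 819 and 560 of their lists. P16 (chr3R:9934967-9935140) lay in intron 3, 6.14 kb beyond the second TSS, with a signal of 324, rank 1495. Its replicate signals were 106, 103 and 106 (105 ± 1.68, SD, n = 3). Every replicate placed both sites well above the median of its own list, which was 61.5, 66.3 and 64.1. These 2 sites and P1 hold 35.8% of the summed signal of all 23.

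The other 2 sites in all 3 lists were weaker. P13 (chr3R:9933336-9933695), 4.6 kb beyond the second TSS in intron 3, had a signal of 171 and replicate signals of 49.2, 55.2 and 56.7 (53.7 ± 3.96, SD, n = 3). P18 (chr3R:9949966-9950325), the only site of intron 4, had a signal of 150 and replicate signals of 29.6, 46.8 and 58.8 (45.1 ± 14.7, SD, n = 3). Both fell below the median of each replicate's list. P18 was weakest in replicate 1, where its IDR score was 944. The score is a whole number of at most 1000 made by the authors from the IDR (irreproducible discovery rate), a measure of whether a peak keeps its rank between analyses, and it was at least 830 in every thresholded list.

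The same strong sites were narrow. P1, P16 and P19 were 104, 174 and 240 bp wide. The other 20 peaks were all 360 bp wide, a width shared by 68.8% of the whole list.

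**Figure D2:**
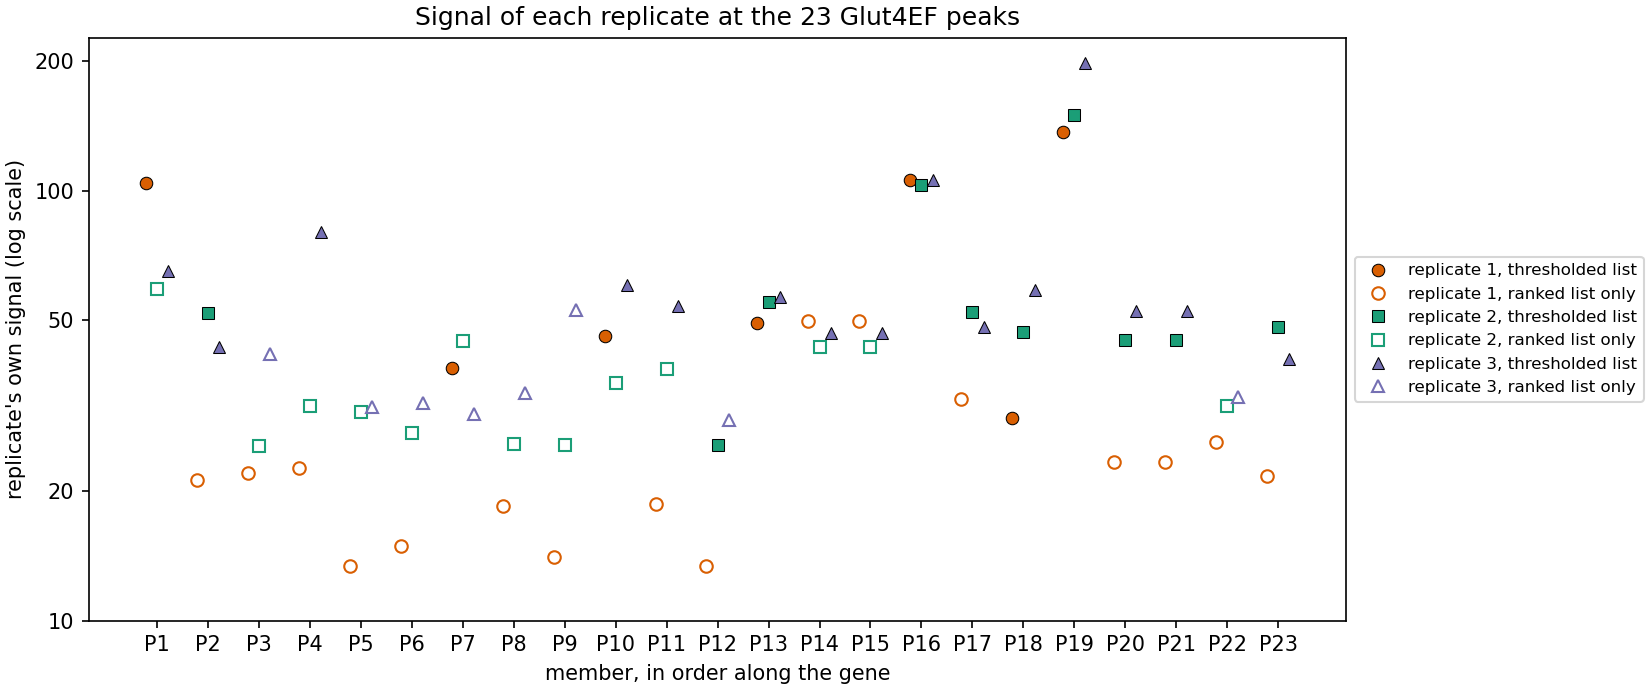
Each replicate's own signal (vertical axis, log scale, in the scale of its own list) at the 23 peaks in order along the gene (horizontal axis). Filled symbols passed the threshold of that replicate and open symbols were in its ranked list only. P16 and P19 stand above 100 in all 3 replicates, and replicate 1 has 16 open symbols, against 13 in replicate 2 and 8 in replicate 3.

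Replicate support was uneven along the gene. A peak counted as supported where a thresholded peak of the replicate overlapped it by at least 1 bp. By this measure 4 of 23 peaks (17.4%) were in all 3 replicate lists, 7 in 2, 6 in 1 and 6 (26.1%) in none. With each overlapping pair counted once, 4 of 21 sites (19%) were in all 3, a count not made for the whole list. Over the whole list, 43.8% of peaks were in all 3 and 16.4% in none. The low share at Glut4EF was part of the reason the gene was singled out, so it is given as a description. None of the 9 sites of intron 1 was in all 3 lists, and 5 of them, P3, P5, P6, P8 and P9, were in none. Beyond the second TSS, 4 of 12 sites were in all 3 lists and only P22 was in none. Signal differed along the gene too. In intron 1 only P7 (138) and P10 (144) reached the list median signal of 137. Beyond the second TSS only the 4 sites in all 3 lists did. Position and signal were not tested apart.

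Replicate 1 held the fewest sites. Its list supported 7 of the 23 (30.4%), against 10 (43.5%) in replicate 2 and 15 (65.2%) in replicate 3. Over the whole list these shares were 58.8%, 61.7% and 70.5%. The mean over replicates was 46.4% ± 17.6 at Glut4EF and 63.7% ± 6.06 over the whole list (SD, n = 3). The first SD rests on shares of 23 peaks and the second on shares of 9369, so their sizes cannot be compared directly. Of the 7 sites in 2 lists, 5 were in those of replicates 2 and 3 (P2, P17, P20, P21 and P23) and 2 in those of replicates 1 and 3 (P1 and P10). P4, P11, P14 and P15 were in the list of replicate 3 alone, P7 in that of replicate 1 alone and P12 in that of replicate 2 alone. With support asked only of replicates 2 and 3, 9 of 23 sites (39.1%) had it, against 53.1% of the whole list. Leaving out replicate 2 instead gave 6 (26.1%), against 49.8%, and leaving out replicate 3 gave 4 (17.4%), against 48.4%. The gap to the whole list was thus smallest without replicate 1. The lists differ in length, and the part of list length in these counts was not tested.

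Sites missing from a thresholded list still overlapped peaks in the ranked list of that replicate. All 23 peaks were overlapped in the ranked lists of all 3 replicates, which hold peaks before the threshold. The share over the whole list was 91.5%. The ranked lists are long and covered 28.4%, 24.8% and 28.9% of the locus in replicates 1, 2 and 3, against 1.63%, 1.97% and 3.06% for the thresholded lists, so an overlap with a ranked list says little. With summits required to lie within 100 bp, 18 of 23 (78.3%) were in all 3 ranked lists, against 76.8% of the whole list. At the strongest overlapping ranked peak, the 16 unsupported sites of replicate 1 had IDR scores of 34 to 721, the 13 of replicate 2 had 54 to 724 and the 8 of replicate 3 had 167 to 811.

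Among the sites held by 1 or 2 lists, some had similar signals in the replicates with and without support, and others had not. Each signal is on the scale of its own list, so these values are only set side by side. P7 in intron 1 (signal 138) had 38.7 in the list of replicate 1, and ranked signals of 44.6 and 30.3 in replicates 2 and 3. P10, 4.25 kb before the second TSS (signal 144), had 46 and 60.2 in the lists of replicates 1 and 3 and a ranked signal of 35.8 in replicate 2. P14 (signal 132) had 46.6 in the list of replicate 3, while replicates 1 and 2 gave 49.7 and 43.4 in their ranked lists only. P17 (signal 132) had 52.2 and 48.3 in the lists of replicates 2 and 3, and a ranked signal of 32.7 in replicate 1. P4, 21.4 kb downstream of the first TSS in intron 1 (signal 125), had 80.1 in the list of replicate 3, against ranked signals of 22.7 and 31.5 in replicates 1 and 2. In replicate 1, unsupported sites were low at P2 (21.3, against 51.8 and 43.2 in the lists of replicates 2 and 3), P11 (18.7, against 54 in replicate 3), P20 (23.4, against 44.9 and 52.4) and P23 (21.7, against 48.1 and 40.5).

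The weakest entries were of another kind. P3, 7.08 kb into intron 1, had a signal of 2.69, the lowest of the 23 and rank 9355 of the list. Its ranked signals were 22, 25.5 and 41.6. The lower members of the overlapping pairs, P15 and P21, had signals of 27.2 and 14.4, beside 132 for P14 and 124 for P20. P5, P6, P8, P9 and P12 had signals of 61.9 to 86.7. P22, with a signal of 91.3, was in no replicate list, yet it was in all 4 thresholded lists of the series. Of the 23 sites, 16 (69.6%) were overlapped in all 3 of the other series lists and 2 (8.7%), P5 and P12, in none of them, against 75.1% and 4.41% of the whole list. P20 and P23 had signals of 124 and 116.

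Sites of lower signal were less often in all 3 lists, here and in the whole list. How far signal goes with the low share at Glut4EF was not tested. The median signal of the 23 peaks was 116, against 137 over the whole list, and 16 of the 23 lay below that list median. Of the 7 sites at or above it, 4 (57.1%) were in all 3 replicate lists, against 78.6% of such peaks in the whole list. Of the 16 below it, none was in all 3 lists and 6 (37.5%) were in none, against 9.05% and 32.7% in the whole list. The series list was made from the alignments of all 3 replicates, so its signal and the replicate lists are not independent measurements.

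**Figure D3:**
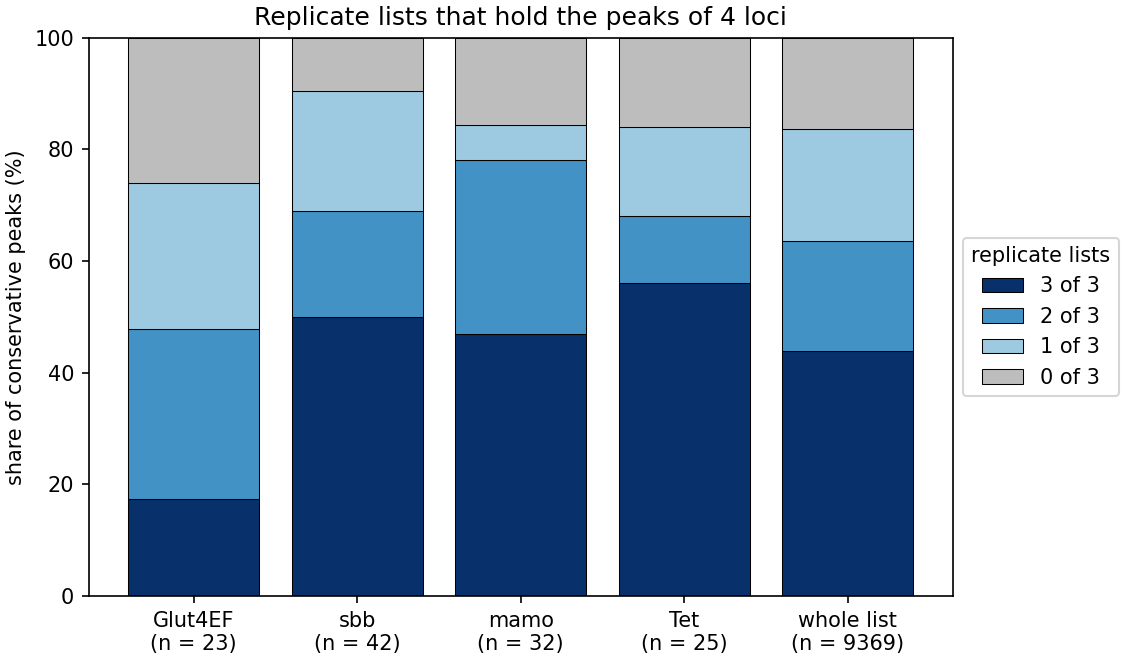
Share of conservative peaks (vertical axis, percent) held by 3, 2, 1 or 0 of the 3 replicate lists at Glut4EF, at the sbb, mamo and Tet loci taken by the same rule, and in the whole list. The dark part, peaks in all 3 lists, is 17.4% at Glut4EF, 46.9% to 56% at the other loci and 43.8% in the whole list.

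Other long loci with many sites were set beside Glut4EF by the same rule. They were sbb (scribbler), which encodes a nuclear regulator of transcription, mamo, a zinc-finger transcription factor gene, and Tet, the fly homologue of the TET dioxygenases. In all 3 replicate lists were 4 of 23 peaks at Glut4EF, 21 of 42 at sbb (50%), 15 of 32 at mamo (46.9%) and 14 of 25 at Tet (56%). The shares at sbb, mamo and Tet all lay above the 43.8% of the whole list. Inside the gene alone the shares were 18.2% at Glut4EF, 51.3% at sbb, 34.8% at mamo and 54.2% at Tet. The median signal was 116 at Glut4EF, 142 at sbb, 154 at mamo and 174 at Tet. Among sites at or above the list median, 4 of 7 at Glut4EF were in all 3 lists, against 18 of 21 at sbb, 14 of 21 at mamo and 11 of 14 at Tet. Replicate 1 held 7 of 23 sites at Glut4EF, 30 of 42 at sbb, 21 of 32 at mamo and 17 of 25 at Tet. These differences were not tested, since Glut4EF was picked with its support known.

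By number of sites Glut4EF was among the most occupied genes. Its 22 summits put it at rank 13 of 13945 protein-coding genes, a rank it shares with CG46467. Per length it had 1.82 summits per 10 kb. There were 63 other protein-coding genes of similar length (96.7 to 149 kb) that do not overlap it. Their median was 3 summits (0.283 per 10 kb), 19 of them had none, and 4 had more than Glut4EF. Of the 406 conservative peaks in these genes, 38.9% were in all 3 replicate lists, against 18.2% of the 22 inside Glut4EF. These 4 were the ecdysone-induced nuclear receptor gene Eip75B (27 summits, 37% in all 3 lists), the supervillin gene Svil (25 summits, 48%), CG1677 (24 summits, 45.8%) and mamo (23 summits, 34.8%).

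**Figure D4:**
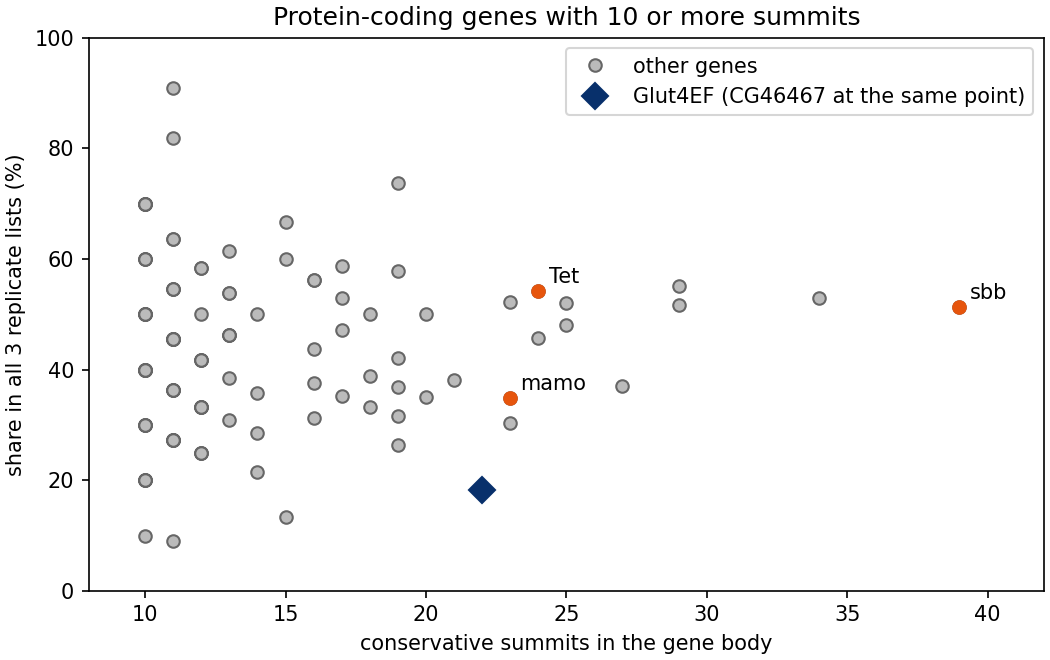
Share of summits held by all 3 replicate lists (vertical axis, percent) against the number of conservative summits in the gene body (horizontal axis) for the 115 protein-coding genes with 10 or more summits. Glut4EF stands at 22 summits and 18.2%, and CG46467, which shares its peaks, lies at the same point. Lower shares are found at 3 genes, Dys (11 summits), CG5151 (10) and sdt (15).

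Among the 115 protein-coding genes with 10 or more summits, the median share in all 3 lists was 42.1%. Of these genes, 3 had a lower share than Glut4EF: Dys (9.09% of 11 summits), CG5151 (10% of 10) and sdt (13.3% of 15). Each of them had fewer summits than Glut4EF. The next higher share was 20%, and with so few peaks in all 3 lists this order could change with single peaks.

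The sequence at the 23 summits was searched for 8 short motifs on both strands, within 50 bp of the summit. TAGAGCA, the core of known Knirps sites, was at none of the 23, and in 0.736% of the whole list. The nuclear receptor half-site AGGTCA was also at none, and in 1.76% of the list. TATCGATA and CACGTG were at none, and in 0.651% and 0.865% of the list. The repeat CACACACA was at P3 and P18 (8.7%), and in 3.1% of the list. CAGCTG was at P13, TATTTAT (as its reverse complement) at P16 and GAGAGAG at P11, and these 3 motifs were in 3.47%, 9.55% and 3.71% of the list. None of the 8 was found at 18 of the 23 summits, nor at 78% of summits of the list. P19, the strongest site, held none of them. With 23 windows, most motifs would be met once or not at all at the rates of the list, so these counts carry little weight, and no test was made.

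Because of the gene's name, 14 fly genes for sugar transport and the response to sugar were looked at. A summit within 1000 bp of a TSS was present at 7 of the 14 (50%), against 27.2% of all protein-coding genes, and the difference was not tested. Those in all 3 replicate lists were at nebu (signal 830), a glucose transporter gene, bigmax (298), for the DNA-binding partner of the sugar sensor Mondo, sug (189), a sugar-induced transcription factor gene, and a single peak (183) counted for both sut1 and slv, which are neighbours. The peak at Tret1-1 (110), a trehalose transporter gene, was in 1 replicate list and that at Glut1 (119) in none. Glut3, Tret1-2, sut2, sut3, sut4, Mondo and cbt had no such peak. Glut4EF itself had summits within 1000 bp of both TSSs, P1 and P2 at the first and P11 at the second.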

How the data were processed

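ChIP-seq peak lists of 3 biological replicates on dm6 were used as the authors deposited them. Per the deposited file descriptions, each replicate's lists came from its own alignments and the series lists from the alignments of all 3. The aligner and the peak caller, with their versions, are not given in sources used here. Each deposited signal is the authors' peak strength, whose scale is particular to each list. The deposited score is derived from the IDR. The deposited −log10 of the q-value was not used. Depth per sample is unknown, so no interval is given. In the ranked series lists 32 columns of individual members were not used. The control experiment that the labels mention was not used here.

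Peaks on the main chromosome arms were kept (9369 of 9370). Genes came from Ensembl release 115 without transposons, and genome sequence from RefSeq (release 6), where Glut4EF start codons read ATG. Summits were the start plus the deposited offset. Named genes are Glut4EF, genes overlapping its window, the comparison loci, the sugar genes and the genes of similar length with the most summits. The 3 genes with a lower share in all 3 lists, and the sugar genes without a peak, were named after their values were seen. The gene, comparison loci, motifs and lists were chosen with earlier results of these data known. Overlap and distance functions were checked on simulated peaks. Python 3.11.15, NumPy 2.4.6, pandas 2.3.3 and matplotlib 3.10.9 were used. Alternatives changed the series list, the window, the overlap and the replicates used.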

Additional observations from a re-analysis of the deposited data

How the results depend on the processing

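The locus held 17, 29 and 20 peaks in the other thresholded series lists of 8252, 11724 and 8639 peaks, 22 in the gene body alone and 23 with 20 kb flanks. With signal at or above the list median there were 7 peaks and 0 promoter summits. In the other series lists the 4 peaks in all 3 replicate lists were out of 17, 29 and 20, so the share varied though the count did not. No whole-list share, of support or of promoter summits, is given for these lists, nor of support for the stricter overlaps. The count of peaks in all 3 replicate lists was 4 of 23 under both stricter overlaps. It was 23 with the ranked lists, and 18 (78.3%, against 76.8% of the whole list) when, in an alternative added after seeing the data, their summits had to lie within 100 bp. Leaving out 1 replicate and asking for support in both others gave 4 to 9 peaks. It was 9 (39.1%, against 53.1% of the whole list) without replicate 1, which held the fewest sites, 6 (26.1%, against 49.8%) without replicate 2 and 4 (17.4%, against 48.4%) without replicate 3. Promoter summits numbered 2 in the conservative list, 1 and 1 in the series lists of 8252 and 8639 peaks, 4 in that of 11724, and 0 to 1 on leaving out a replicate. Summits per kb of gene, 0.182 in the conservative list, were 0.0331 to 0.0746 on leaving out a replicate, which keeps only peaks found in both others. The sugar list had 7 genes with a promoter peak in the 500 bp window too, and 5 without each replicate. Motif counts were at most 4 of 23 in both other window lengths tried. No paired analysis was possible because there was 1 group. Unknown read depth limits what absence from a list can mean.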

Other observations

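Some sites at Glut4EF were listed elsewhere but not in the conservative list. The series list of 11724 peaks held 9 peaks in the locus that no conservative peak overlapped, with signals of up to 107. Of all its peaks there, 2 lay more than 1 kb beyond P23, the stretch where the conservative list had none, with signals of up to 60.2. The series list of 8639 peaks held 2 peaks that no conservative peak overlapped, and that of 8252 held 0. The thresholded list of replicate 1 held 2 further peaks in the locus (signal up to 51.6), that of replicate 3 held 1 (signal 44.5) and that of replicate 2 held 0.

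At most supported sites the summit of the replicate lay close to the conservative summit. Distances were taken only where the peaks overlapped, to the strongest overlapping peak, so closeness is partly built in. No such distance is given for the whole list. The median distance between the conservative summit and that of the replicate was 3 bp in replicate 1, 17.5 bp in replicate 2 and 31 bp in replicate 3. The largest distances, 188 bp in replicate 2 and 180 bp in replicate 3, were at P21, whose replicate peak is shared with P20.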
